A study of Mus musculus with 24 samples.

Results

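The matrix metalloproteinases and the tissue inhibitors that restrain them were followed in kidneys of the *megabladder* (mgb-/-) mouse, a model of congenital obstruction of the urinary tract. The 10 genes were taken by name: the 4 inhibitors *Timp1*, *Timp2*, *Timp3* and *Timp4* and the 6 proteases *Mmp2*, *Mmp3*, *Mmp7*, *Mmp9*, *Mmp10* and *Mmp14*. Each was read from the array probe whose accession maps to it, out of 37147 genes and transcripts with a probe. Whole kidneys of male mice of matched age were compared, 24 in all, with 1 kidney to an array. The labels give the stage as young adult, and by the methods of the study the mice were a few weeks old. The control group held 6 kidneys of genotype mgb+/+ and the mutant group 18 of genotype mgb-/-, of which ultrasound had graded 7 as mild, 5 as moderate and 6 as severe hydronephrosis. No drug or operation is named for either genotype. The bladder of mgb-/- mice does not contract and urine backs up before birth, so obstruction and mutation come together in every mutant kidney and cannot be told apart. Whether both kidneys of a mouse entered is not given in the labels, and p-values therefore measure the spread between kidneys.

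Matrix metalloproteinases are zinc-dependent enzymes that cut collagens, proteoglycans and other proteins outside the cell, and most are secreted as inactive proenzymes. Each of the tissue inhibitors binds active enzymes in a tight complex. *Timp2* has a further role, since on the cell surface it links the membrane-bound *Mmp14* to proMmp2, which *Mmp14* then activates. In the kidney the balance of these enzymes and inhibitors is studied as a part of matrix turnover in fibrosis, and *Timp1* is known as a gene that responds to injury.

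Values are the log2 processed signal of the scanner software minus the 75th percentile of the same array, so that 0 is that percentile. They compare kidneys for 1 probe, and the levels of different probes are not compared. Between 55.6% and 70.7% of probes stood well above background on an array, the 75th percentile lay between 496 and 968 intensity units, and no spot was saturated. A gene was tested where 5 or more arrays showed its probe well above background, which left 27959 genes and 9 of the 10 studied here. *Mmp10* was above background in 2 of 24 kidneys and was not tested. *Mmp3* and *Mmp7* were above background in 14 mgb-/- kidneys each and in no control kidney, so they passed this filter through the mutant kidneys and had to differ. Groups were compared with limma, adjusted p-values are Benjamini-Hochberg values over all genes tested, and calls needed both an adjusted p below 0.05 and at least a 2-fold difference. Precision is limited by how many arrays there were. Kidney markers were present, since all 5 markers of the proximal tubule and all 4 of podocytes stood well above background in all 24 kidneys. Of the 6 markers of the thick limb, distal tubule and collecting duct, *Scnn1g* alone was not above background in any kidney.

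Among the inhibitors, *Timp1* spread over the widest range of values. This inhibitor is secreted by many cell types and is induced in injured tissue. Control kidneys had a lowest value of -3.92, a median of -3.53 and a highest value of -3.11. The mild kidneys reached from -2.80 to -1.16 with a median of -2.33. Every mild kidney was thus above every control kidney. The fitted mild difference of 1.25 (SE 1.01, limma adjusted p = 0.532) was not called, under a spread shared with the wider moderate and severe groups. The 5 moderate kidneys held 2.07, -1.88, 0.70, 2.83 and -3.52. The severe kidneys ran from -2.70 to 5.17, with a median of -1.16. Moderate kidney 5, at -3.52, was the 1 mutant kidney within the control range, and severe kidney 5 was the highest of all. In severe against control kidneys *Timp1* rose by 3.08 (SE 1.05, limma adjusted p = 0.0481), an 8.47-fold difference, with 6 of 6 kidneys above every control. The call was lost with any of 17 kidneys left out, with adjusted p from 0.0504 to 0.0994. Of these, each of the 6 controls and severe kidneys 1, 2 and 5 enter the log2 difference, which was then between 1.96 and 3.20. Each of the 7 mild kidneys and moderate kidney 3 enter only the shared spread. Without any of them the difference stayed 3.08 (adjusted p from 0.0504 to 0.0572). Over all 18 mgb-/- kidneys the difference of 2.50 (SE 0.92, adjusted p = 0.0705) did not pass, although 17 of 18 lay above every control, and it passed without moderate kidney 5 (adjusted p = 0.0478) or severe kidney 5 (adjusted p = 0.0426). Within the 3 slides that each held 2 control and 6 mutant arrays the difference was 3.04, 2.31 and 2.15.

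*Timp2*, the inhibitor that joins in the activation of proMmp2, was higher in mutant kidneys by a small and even step. Its control values ran from 4.56 to 5.10 with a median of 4.78. Mild kidneys ran from 5.00 to 5.51, with a median of 5.31. Moderate kidneys held 5.37, 5.40, 5.85, 5.38 and 4.52, and severe kidneys ran from 5.07 to 5.92 with a median of 5.56. Moderate kidney 5 lay below every control kidney, and 15 of 18 mutant kidneys lay above every control. *Timp2* rose by 0.56 (SE 0.14, limma adjusted p = 0.0122) over all mgb-/- kidneys and by 0.71 (SE 0.17, adjusted p = 0.0109) in severe kidneys, both under 2-fold. Its second, dimmer probe differed in the same direction, by 0.47 and 0.62. When arrays were scaled by their medians the differences were 0.41 (adjusted p = 0.0919) and 0.54 (adjusted p = 0.0765).

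*Timp3*, the inhibitor that stays bound to the extracellular matrix, moved against the others. Control kidneys ran from 6.66 to 7.00 with a median of 6.86, and mild kidneys from 6.42 to 6.76 with a median of 6.57. Moderate kidneys held 6.19, 6.87, 6.32, 6.53 and 6.61, and severe kidneys ran from 5.79 to 6.83 with a median of 6.47. In 13 of 18 mutant kidneys *Timp3* was below every control, and severe kidney 5 was again the extreme, here the lowest. In severe kidneys *Timp3* fell by 0.43 (SE 0.14, limma adjusted p = 0.0401), a change under 2-fold. It kept an adjusted p below 0.05 under 20 of 36 alternatives and lost it with any of control kidneys 1, 3, 4 and 5 or severe kidneys 1, 2, 4 and 5 left out (0.0618 to 0.0905, log2 differences of -0.45 to -0.31). Over all mgb-/- kidneys the difference was -0.33 (SE 0.11, adjusted p = 0.0566).

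*Timp4*, an inhibitor found in fewer tissues than the others, split the mutant kidneys. Its control values lay between -4.26 and -3.31. In 11 mgb-/- kidneys it was above every control and in 5 below every control, and the severe group held 3 of each. Moderate kidney 1 was highest, at -1.29, and severe kidney 6 lowest, at -4.98. The mean difference of 0.58 (SE 0.50, 95% interval -0.44 to 1.60, adjusted p = 0.474) did not pass, and its sign was negative on 1 slide (1.49, -0.45 and 0.69).

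**Figure D1:**
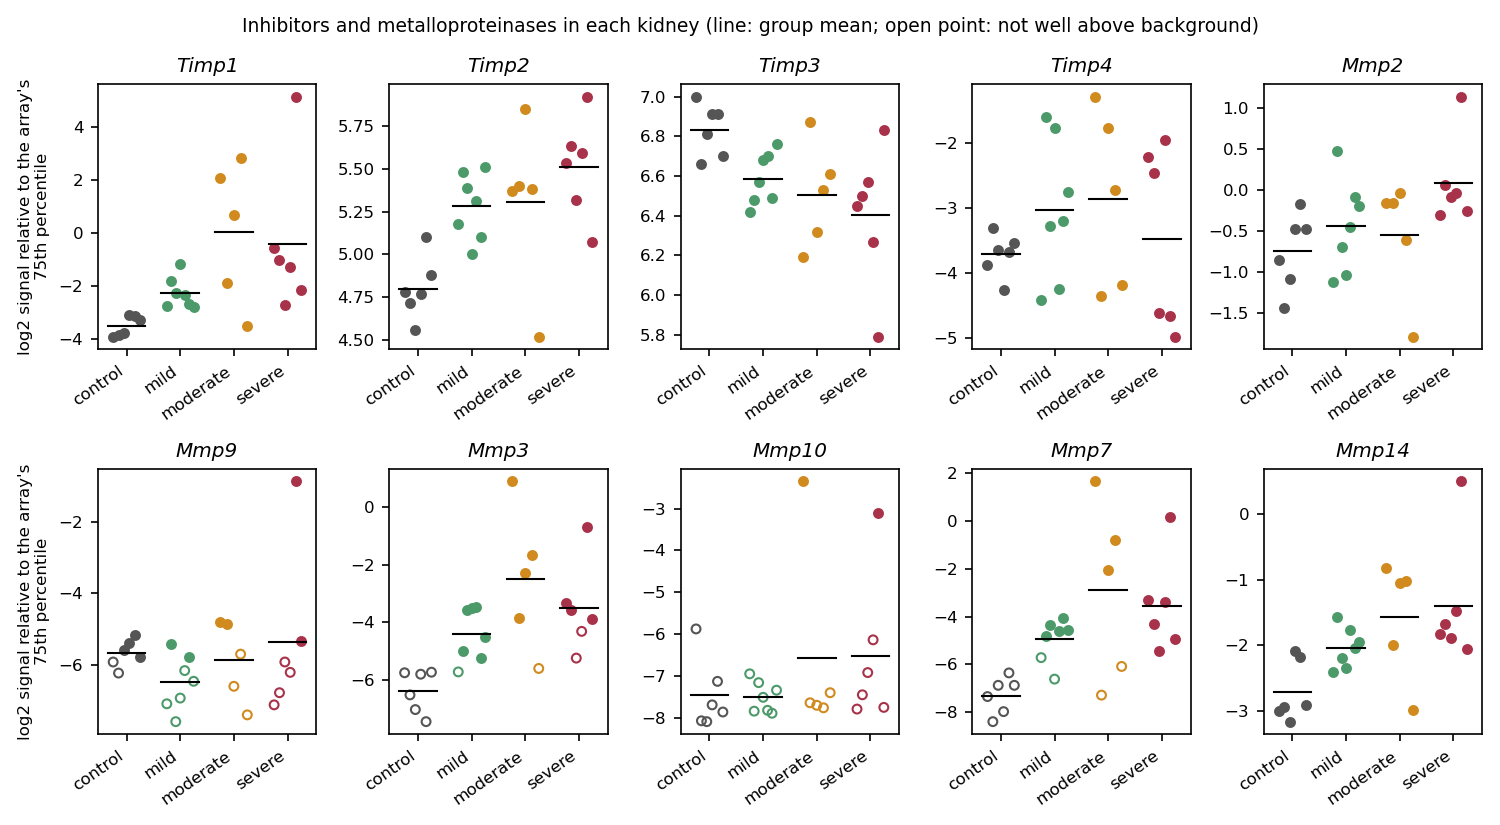
Each panel shows 1 gene, with the log2 signal relative to the array's 75th percentile on the vertical axis, its range set per gene, and the 6 control, 7 mild, 5 moderate and 6 severe kidneys along the horizontal axis. Points are kidneys, open points were not well above background and lines are group means; severe kidney 5 is the highest point of *Timp1*, *Timp2*, *Mmp2*, *Mmp9* and *Mmp14* and the lowest of *Timp3*.

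Of the gelatinases, *Mmp2* degrades denatured and basement membrane collagen and comes mainly from stromal cells. Control kidneys ran from -1.44 to -0.17 with a median of -0.67. Mild kidneys ran from -1.12 to 0.47 with a median of -0.45, and moderate kidneys held -0.16, -0.16, -0.03, -0.61 and -1.79. Severe kidneys lay between -0.30 and 1.14 with a median of -0.06. The groups overlapped, with moderate kidney 5 below every control and severe kidney 5 alone above 1. The difference was 0.45 (SE 0.27, 95% interval -0.11 to 1.02, adjusted p = 0.285) over all mutant kidneys and 0.84 (SE 0.32, adjusted p = 0.0748) in severe kidneys, and neither passed.

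*Mmp9*, the gelatinase of neutrophils and macrophages, was near background and its probe, printed in 10 spots, stood above it in 4 control and 6 mutant kidneys. Control values ran from -6.23 to -5.16. All other mutant kidneys lay at or below -4.80, while severe kidney 5 reached -0.86. The difference over all mutant kidneys was -0.27 (SE 0.61, 95% interval -1.53 to 0.99, adjusted p = 0.812). Its sign was positive on 1 of 3 slides (-0.64, 0.59 and -0.76).

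The stromelysins cut proteoglycans, fibronectin and other matrix proteins and can activate other metalloproteinases, and *Mmp3* is the form best known from fibroblasts. No control kidney was well above background for *Mmp3*, with measured values from -7.45 to -5.73. Mild kidneys ran from -5.72 to -3.45 with a median of -4.50. Moderate kidneys held 0.91, -3.86, -2.28, -1.64 and -5.60, and severe kidneys ran from -5.24 to -0.69 with a median of -3.72. All 18 mutant kidneys had a value above every control value, the closest being mild kidney 1, at -5.72 against the highest control value of -5.73, and 4 of the 18 were themselves not well above background. The fitted rise over all mgb-/- kidneys was 2.80 (SE 0.71, limma adjusted p = 0.0136). Each control array was also raised to a floor, its lowest signal well above background, where the probe was dimmer. Over these floored controls the mutant mean was 4.97-fold higher, with dim mutant values taken as measured. In moderate kidneys the fitted rise was 3.88 (SE 0.86, adjusted p = 0.0318), or 10.5-fold over the floor. In severe kidneys it was 2.88 (SE 0.82, adjusted p = 0.0228), or 5.24-fold. These folds hold for this scale and are no strict minimum. The mild difference of 1.96 (SE 0.79, adjusted p = 0.142, 2.78-fold over the floor) was not called. Within the 3 slides the difference over all mutant kidneys was 2.78, 3.01 and 2.62, and that call remained with any 1 kidney left out. The call in moderate kidneys was lost without any of the 6 controls or moderate kidney 1, 3 or 4 (adjusted p from 0.0525 to 0.125). The call in severe kidneys was lost without control kidney 3 (adjusted p = 0.0518) or severe kidney 5 (adjusted p = 0.0562). With a background correction that compresses low signals (normexp) the difference over all mutant kidneys was 0.86 (adjusted p = 0.145), and in the authors' normalized table it was 1.21 (adjusted p = 0.0909). Both are under the log2 difference of 2.31 over floored controls.

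*Mmp10*, the other stromelysin, is an enzyme of epithelial cells. It stood above background in moderate kidney 1, at -2.35, and severe kidney 5, at -3.10, and in none of the 6 controls. Those are also the kidneys with the highest values of *Mmp3*. In the RefSeq order of mouse chromosome 9, *Mmp13*, *Mmp12*, *Mmp1b*, *Mmp3*, *Mmp1a*, *Mmp10*, *Mmp8*, *Mmp27*, *Mmp20* and *Mmp7* follow each other in 1 cluster of metalloproteinase genes. Of these neighbours, *Mmp12* and *Mmp8* were above background in 3 mutant kidneys each and *Mmp1b* in 1, all 3 of them in no control kidney, and *Mmp1a* and *Mmp20* in no kidney. *Mmp13*, a collagenase at the other end of the cluster, was lower in mutant kidneys and is described with the related genes.

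The promoters of *Mmp3*, *Mmp10* and *Mmp7* are shown because these are the genes of the cluster among the 10 studied, each above background in mutant kidneys alone, and because promoters of this family are known for a site of the transcription factor AP-1. RefSeq windows (GRCm38.p6) of 250 bases upstream of the start were at hand for 8 of the 10 genes, the exceptions being *Mmp2* and *Mmp9*. The AP-1 motif TGAGTCA, searched on both strands (TGACTCA on the other), is in capitals. The windows are chr9:7445572-7445821 for *Mmp3*, chr9:7502092-7502341 for *Mmp10* and chr9:7691840-7692089 for the first of 2 starts of *Mmp7*, all on the plus strand.
Mmp3: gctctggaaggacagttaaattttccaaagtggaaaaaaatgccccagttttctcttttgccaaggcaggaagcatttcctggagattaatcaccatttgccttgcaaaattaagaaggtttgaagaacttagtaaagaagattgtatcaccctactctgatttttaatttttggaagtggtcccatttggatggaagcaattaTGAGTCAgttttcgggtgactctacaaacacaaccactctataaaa
Mmp10: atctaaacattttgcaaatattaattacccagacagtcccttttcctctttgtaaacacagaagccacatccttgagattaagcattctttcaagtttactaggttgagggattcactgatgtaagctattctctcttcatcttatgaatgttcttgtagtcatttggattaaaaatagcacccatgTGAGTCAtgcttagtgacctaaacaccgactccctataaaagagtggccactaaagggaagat
Mmp7: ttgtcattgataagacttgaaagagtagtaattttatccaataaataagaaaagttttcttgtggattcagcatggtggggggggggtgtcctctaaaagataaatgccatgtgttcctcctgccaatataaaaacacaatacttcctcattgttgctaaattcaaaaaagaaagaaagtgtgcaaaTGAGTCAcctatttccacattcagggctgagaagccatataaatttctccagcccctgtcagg
The motif lay 46 to 40 bases before the start of *Mmp3* and 63 to 57 bases before those of *Mmp10* and *Mmp7*. It was not found in the windows of *Mmp14*, *Timp1*, *Timp2*, *Timp3* and *Timp4* or of the second start of *Mmp7*. Among the neighbours in the cluster it was also found 35 to 29 bases before the start of *Mmp13*, which was lower in mutant kidneys, and in a window of *Mmp12*, of *Mmp1b* and of *Mmp1a*, the last above background in no kidney. It was not found in those of *Mmp8*, *Mmp27* and *Mmp20*. Of 32536 mouse windows of the same length 4.45% hold it. A match describes the letters of the window only.

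*Mmp7*, matrilysin, is a small protease of epithelial cells that is known to appear in tubules after kidney injury. No control kidney was well above background, with measured values from -8.40 to -6.36. Mild kidneys ran from -6.62 to -4.07 with a median of -4.59, and moderate kidneys held 1.66, -7.29, -2.04, -0.79 and -6.09. Severe kidneys ran from -5.44 to 0.15 with a median of -3.87, and all 6 of them stood above background. Among the other grades 5 of 7 mild and 3 of 5 moderate kidneys did so. Mild kidney 4 and moderate kidney 2 had values within the control range. Over all mgb-/- kidneys the fitted rise was 3.39 (SE 0.95, limma adjusted p = 0.0221). The mutant mean was 4.10-fold higher than controls raised to the floor, with dim mutant values taken as measured. In severe kidneys the rise was 3.76 (SE 1.12, adjusted p = 0.0282), or 5.32-fold over the floor. The moderate mean was the highest, with a fitted difference of 4.40 (SE 1.18, 8.26-fold over the floor), yet its adjusted p of 0.0615 did not pass. Without moderate kidney 2 that adjusted p was 0.0091 and without moderate kidney 5 it was 0.0219. Without severe kidney 5, which enters only the shared spread there, it was 0.0302. The mild difference was 2.35 (SE 1.08, adjusted p = 0.21, 1.99-fold over the floor). On the 3 slides the mutant kidneys differed by 4.27, 2.71 and 3.19. The call over all mutant kidneys was lost without control kidney 2 (adjusted p = 0.0556) or 4 (adjusted p = 0.0525), and the call in severe kidneys without control kidney 2, 3 or 4 or severe kidney 1 or 5 (0.0501 to 0.0704). Under normexp the difference over all mutant kidneys was 1.10 (adjusted p = 0.217), and in the authors' normalized table it was 1.43 (adjusted p = 0.156). Both are under the log2 difference of 2.04 over floored controls.

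*Mmp14*, the membrane-type protease that activates proMmp2 and cuts fibrillar collagen, was above background in all 24 kidneys. Control kidneys ran from -3.16 to -2.08 with a median of -2.92. Mild kidneys ran from -2.40 to -1.57 with a median of -2.04, and moderate kidneys held -0.82, -1.99, -1.05, -1.02 and -2.99. Severe kidneys ran from -2.06 to 0.50 with a median of -1.75. Every severe kidney was above every control kidney, while moderate kidney 5 lay inside the control range. *Mmp14* rose by 1.01 (SE 0.32, limma adjusted p = 0.0389), or 2.02-fold, over all mgb-/- kidneys, and by 1.30 (SE 0.38, adjusted p = 0.0266), or 2.47-fold, in severe kidneys. Against controls the mild difference was 0.67 (SE 0.37, adjusted p = 0.308) and the moderate difference 1.13 (SE 0.40, adjusted p = 0.14). The slides gave 0.84, 0.94 and 1.26 over all mutant kidneys. Lying on the 2-fold line, the call over all mutant kidneys was lost without control kidney 1, 2, 3 or 6, mild kidney 2, moderate kidney 1, 3 or 4 or severe kidney 4 or 5 (log2 difference 0.88 to 1.00, adjusted p from 0.0179 to 0.106). The call in severe kidneys was lost without control kidney 1, 2 or 3 or severe kidney 5, with adjusted p from 0.0506 to 0.0618, and without severe kidney 5 the difference was 0.92.

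Counted over the genes, 3 of the 9 tested were called over all mgb-/- kidneys (*Mmp3*, *Mmp7* and *Mmp14*), where 3.09% of all genes tested were called. At an adjusted p alone, with no minimum fold, *Timp2* made 4, against 13.3% of all genes. Against controls 0 were called in mild kidneys by limma (background 2.21%; 3 had an unadjusted p under 0.05, as did 21.4% of all genes), 1 in moderate kidneys (*Mmp3*, background 0.730%) and 4 in severe kidneys (*Timp1*, *Mmp3*, *Mmp7* and *Mmp14*, background 4.71%). The grades share 1 estimate of spread, to which moderate and severe kidneys add. With mild and control kidneys fitted alone, *Timp1*, *Mmp3* and *Mmp7* were called (limma adjusted p = 0.00574, 0.00789 and 0.00265). In that fit 964 of 27959 genes were called. In severe kidneys 6 genes had an adjusted p under 0.05, where 16.1% of all genes did. *Mmp3* and *Mmp7* passed the filter on dim probes through the mutant kidneys alone, so these counts describe the genes and do not set them apart. All kidneys of a grade were above all controls for *Timp1* and *Mmp3* in mild, for *Mmp3* in moderate, and for *Timp1*, *Mmp3*, *Mmp7* and *Mmp14* in severe kidneys. Of all genes 3.00%, 1.32% and 2.87% showed this in the 3 grades. The median difference of the 9 genes was 0.58 over all mutant kidneys and, by rising grade, 0.67, 0.85 and 0.84, beside 0.01, 0.01, -0.03 and 0.02 over all genes. The comparisons share the same 6 controls.

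**Figure D2:**
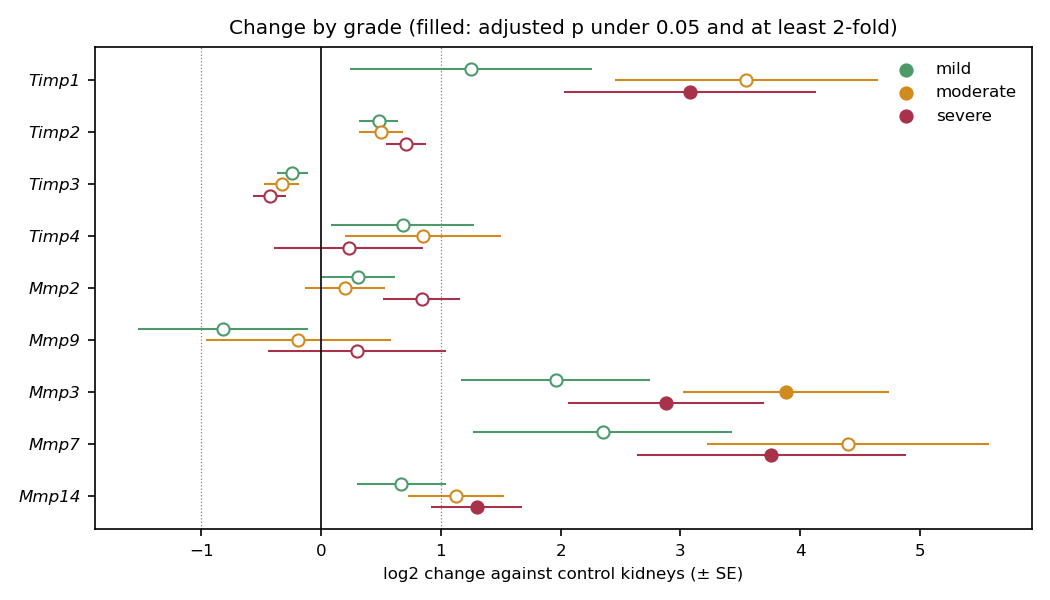
The horizontal axis gives the log2 difference from the 6 control kidneys with its SE for mild, moderate and severe kidneys, and each of the 9 tested genes has its own line. Filled points were called, dotted lines mark 2-fold, and the differences of *Mmp3* and *Mmp7* are fitted values against controls at background; *Timp3* is the 1 gene below 0 in all 3 grades, at -0.24, -0.33 and -0.43.

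None of the 9 genes was called between grades. Between severe and mild kidneys (background 0.461%) the lowest adjusted p from limma was 0.512, and 0 of the 9 genes had an unadjusted p under 0.05, beside 11.1% of all genes. The difference of *Timp1* there was 1.83 (95% interval -0.26 to 3.92), that of *Mmp3* 0.92 (-0.71 to 2.54), that of *Mmp7* 1.41 (-0.83 to 3.66) and that of *Mmp14* 0.63 (-0.14 to 1.40). Such intervals hold both no difference and differences of over 2-fold. Between moderate and mild kidneys (background 0%, and 6.67% at an unadjusted p under 0.05) *Timp1* differed by 2.30 (0.09 to 4.50, unadjusted p = 0.042 and adjusted p = 0.728 from limma) and *Mmp3* by 1.92 (0.21 to 3.64, unadjusted p = 0.0298 and adjusted p = 0.671). Between severe and moderate kidneys (background 0.00715%) the difference of *Timp1* was -0.47 (-2.75 to 1.81) and 0 of the 9 genes had an unadjusted p under 0.05 by limma, beside 10.4% of all genes.

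Kidneys of 1 grade differed widely in these genes. Of the 7 genes with a mean above control in every grade (*Timp1*, *Timp2*, *Timp4*, *Mmp2*, *Mmp3*, *Mmp7* and *Mmp14*), mild kidneys had between 3 and 7 above every control, moderate kidneys between 2 and 7 and severe kidneys between 4 and 7. The 7 were taken for their means in these same data, which favours high counts. No such count was made over all genes, so the counts set kidneys side by side and say nothing about the genes. Values of *Mmp3* and *Mmp7* not well above background are included. Moderate kidney 5 had the 2, *Mmp3* and *Mmp7*, neither of which was well above background there, and it was lowest of all mutant kidneys for *Timp1*, *Timp2*, *Mmp2* and *Mmp14*. Moderate kidney 1 was highest for *Timp4*, *Mmp3*, *Mmp7* and *Mmp10*.

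Markers of cell types were set beside these values, and no relation between both was computed. Marker levels were summed per kidney on the linear scale, in units of the array's 75th percentile. The brightest probes lead such a sum, as *Upk1a* (log2 mean 5.93 in severe kidneys) outweighs *Krt14* (-0.08), so it is no measure of cell number. The 7 fibroblast and myofibroblast markers, all above background in all kidneys, summed to between 15.1 and 24.3 in control, 21.9 and 32.1 in mild, 10.6 and 70.1 in moderate and 27.4 and 98.8 in severe kidneys. Their lowest sum was that of moderate kidney 5 and their highest that of severe kidney 5. *Acta2*, the actin of myofibroblasts and smooth muscle, was the 1 of 7 called over all mgb-/- kidneys (1.20, SE 0.34, limma adjusted p = 0.0223), beside 3.09% of all genes. The 9 measured leukocyte markers summed to between 31.6 and 46.8 in control kidneys and in severe kidneys to between 5.56, in kidney 4, and 122, in kidney 5. None of the 9 was called by limma, and *Cd79a*, of B cells, was above background in 11 of 24 kidneys while the other 8 were in all 24. The 7 urothelial markers summed to between 6.78 and 20.8 in control and 76.6 and 257 in severe kidneys. All 7 were called in severe against control kidneys, beside 4.71% of all genes. The 5 proximal tubule markers summed to between 741 and 929 in control kidneys, to 942 in moderate kidney 5 and to 168 in severe kidney 5. In whole kidney RNA fewer cells of a type and less RNA per cell cannot be told apart, and the part of these cell types in the values of the 10 genes was not tested.

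Within the mutant kidneys several of the genes varied together from kidney to kidney. Such relations were computed over the 18 mgb-/- kidneys for the 28 pairs of the 8 genes above background in at least 9 of them. Moderate kidneys 1, 3 and 4 and severe kidney 5 lay apart from the others for *Lcn2*, the neutrophil gelatinase-associated lipocalin that marks injured tubules, with values of at least 4.29 against at most 2.05 in the other 14. Values over all 18 kidneys are therefore a description. The p-values printed are those over the 14, a set chosen after seeing the data, so they too are read as a description. Leaving out the 4 kidneys also takes away the 4 highest values of *Timp1*, *Mmp3*, *Mmp7* and *Mmp14*. That narrows the range, which by itself can lower r. The test was a two-sided permutation test with Benjamini-Hochberg adjustment over the 28 pairs. *Mmp2* followed *Mmp14* over the 14 kidneys (r = 0.92, rho = 0.80, adjusted permutation p = 0.00028 and 0.017) and over all 18 (r = 0.78). *Timp2* followed *Mmp14* likewise (r = 0.88, rho = 0.79, adjusted permutation p = 0.0025 and 0.017, and r = 0.77 over 18). Without the 2 kidneys farthest from the median of the first gene, moderate kidney 5 with mild kidney 1 or mild kidney 4, r over the remainder was 0.77 and 0.67. These were the 2 of 28 pairs past the threshold in both r and rho over the 14 kidneys. How many pairs of all genes would pass was not counted, so the number says nothing particular about these genes. Many other genes lay closer to *Mmp14* over all 18 kidneys, where *Mmp2* stood at rank 841 and *Timp2* at rank 925 by r. *Timp2* with *Mmp2* had r = 0.78 (adjusted permutation p = 0.019) but rho = 0.64 (adjusted permutation p = 0.12), and r was 0.40 without moderate kidney 5 and mild kidney 4. *Timp1* and *Mmp3* had r = 0.72 (adjusted permutation p = 0.03) and rho = 0.70 (adjusted permutation p = 0.066).

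Several other pairs had an r closer to 0 over the 14 kidneys than over all 18, by differing amounts. *Mmp3* and *Mmp7* had r = 0.85 over all 18 kidneys and 0.19 over the 14, in 6 of which at least 1 of both genes was not well above background. *Timp1* and *Mmp7* had 0.84 and 0.31, *Timp1* and *Mmp14* had 0.91 and 0.57, and *Mmp7* and *Mmp14* 0.82 and 0.56. *Timp3* ran opposite to *Timp1*, at -0.73 over 18 and -0.25 over 14, and to *Mmp7*, at -0.75 and -0.59. Within mild kidneys *Mmp3* and *Mmp7* had r = -0.10 and within severe kidneys 0.93, while *Mmp2* and *Mmp14* had 0.89 and 0.98. On the 3 slides, with 6 mutant kidneys each, *Mmp3* and *Mmp7* had r of 0.90, 0.82 and 0.60, *Mmp2* and *Mmp14* had r of 0.58, 0.89 and 0.66, and *Timp2* and *Mmp14* 0.47, 0.90 and 0.85.

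**Figure D3:**
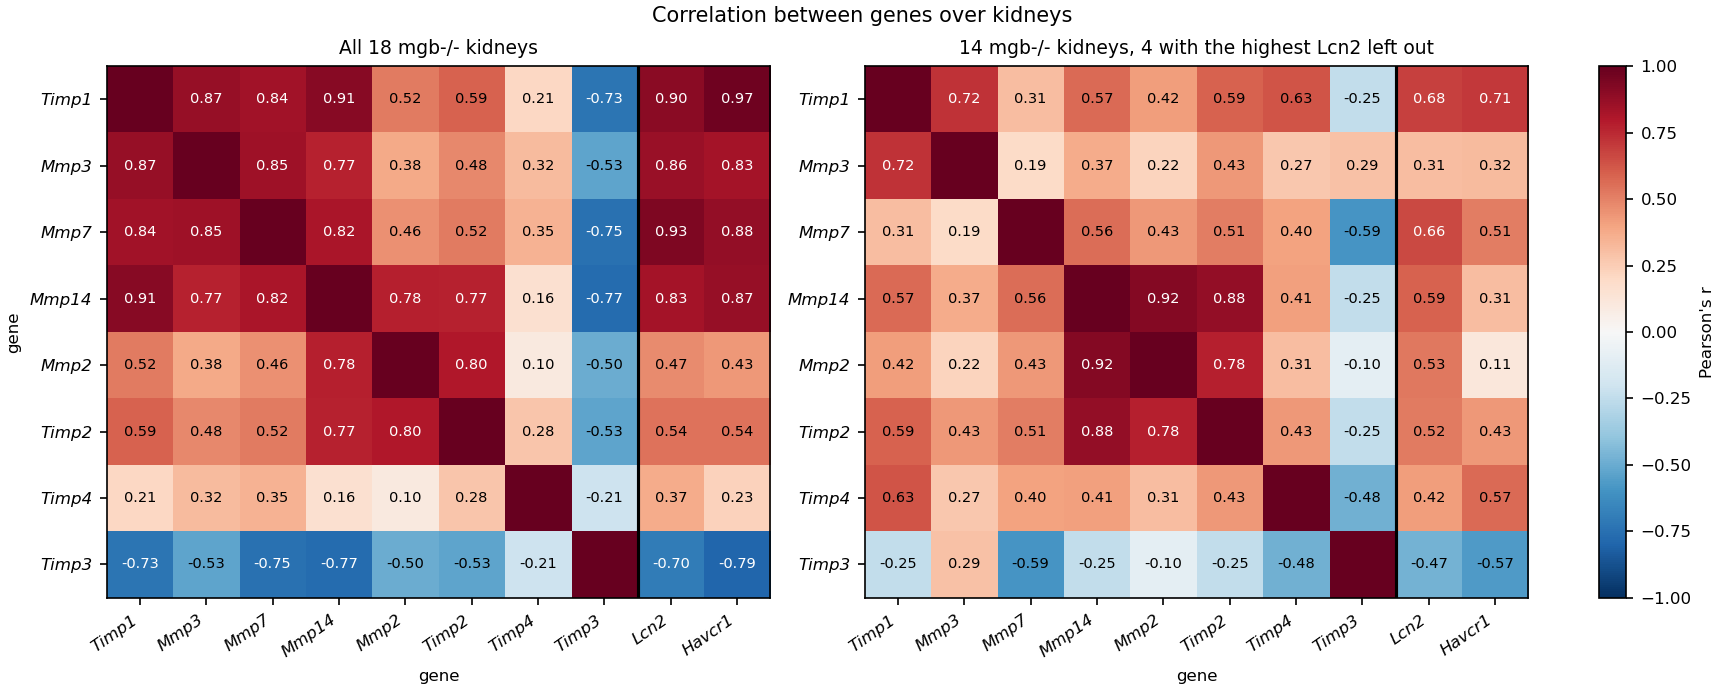
Pearson's r between pairs of genes (both axes) over all 18 mgb-/- kidneys, left, and over the 14 that remain without moderate kidneys 1, 3 and 4 and severe kidney 5, right, with *Lcn2* and *Havcr1* beyond the black line. The square of *Mmp14*, *Mmp2* and *Timp2* stays between 0.78 and 0.92 on the right, while *Mmp3* with *Mmp7* goes from 0.85 to 0.19.

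The injury genes *Lcn2* and *Havcr1*, the latter coding for kidney injury molecule-1 of proximal tubules, were set beside the same 8 genes. Neither was called in any comparison, with differences over all mgb-/- kidneys of 2.17 (SE 0.99, adjusted p = 0.147) and 1.66 (SE 0.87, adjusted p = 0.208). The study had itself named *Timp1* and *Havcr1* from a comparison of these kidneys by *Lcn2*, so the pairs of *Timp1* with both are no independent evidence. Over the 14 kidneys *Timp1* had r = 0.68 with *Lcn2* and 0.71 with *Havcr1* (adjusted permutation p = 0.057 for both over the 16 pairs), and over all 18 it had 0.90 and 0.97. *Mmp7* with *Lcn2* had r = 0.66 (adjusted permutation p = 0.057) and, over all 18, 0.93. *Timp3* ran the other way, with r of -0.47 and -0.70. None of the 16 pairs passed in both r and rho over the 14 kidneys, by the permutation test. The 14 were themselves chosen for low *Lcn2*, which cuts the range of that variable and can lower r, so the loss says little about these pairs. *Timp1* and *Lcn2* had r = 0.23 within mild kidneys, 0.96 within severe kidneys and 0.94, 0.95 and 0.94 on the 3 slides.

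**Figure D4:**
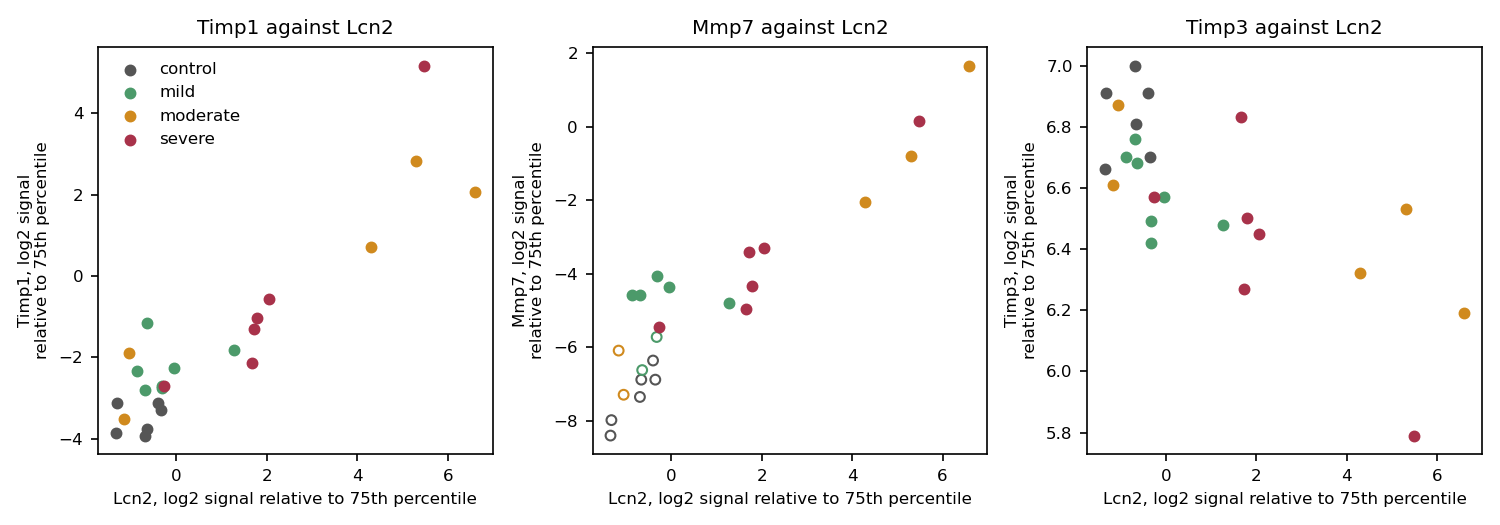
Log2 signal of *Timp1*, *Mmp7* and *Timp3* (vertical axes) against that of *Lcn2* (horizontal axis), both relative to the array's 75th percentile, with 1 point a kidney coloured by group and open points for *Mmp7* not well above background. The 4 kidneys at *Lcn2* of 4.29 or more hold the 4 highest values of *Timp1* and *Mmp7*, and the other 14 mutant kidneys lie at 2.05 or less.

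Of 27657 genes ranked by likeness to each called gene over the 18 mutant kidneys, the closest to *Timp1* were *Ms4a6d* (r = 0.97), *Havcr1* (0.97) and *Cp* (0.96). The closest to *Mmp14* were *Sting1*, *Rgs19* and *Tuba1a*, at 0.97 each. *Mmp3* stood closest to an unnamed transcript (0.90), *Il11* (0.88) and *Cp* (0.88), and *Mmp7* to *Pea15a* (0.93), an unnamed transcript (0.93) and *Lcn2* (0.93). In the ranking for *Mmp3*, *Timp1* stood at rank 6 and *Mmp7* at rank 18. For *Timp1* the nearest of the 10 genes was *Mmp14*, at rank 67. In the ranking for *Mmp14*, *Timp1* stood at rank 125, *Mmp2* at rank 841 and *Timp2* at rank 925. The 4 kidneys that lie apart enter all these values, which are given as a description.

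Genes that act with or on the metalloproteinases were read from lists written with earlier results of these data known. Of 17 other metalloproteinases 7 were above background often enough to be tested, with a median difference of -0.03. Over all mgb-/- kidneys 1 of them was called higher and 1 lower, beside 3.09% of all genes called. *Mmp19*, a protease of several stromal and immune cells, was above background in 9 mutant and no control kidneys, so it too passed the filter through the mutant kidneys and had to differ. Its fitted difference was 1.73 (SE 0.43, limma adjusted p = 0.0118), but over controls raised to the floor the mutant mean was 1.58-fold higher, under 2-fold. The call was lost in 2 of 34 other settings, normexp, with a difference of 0.28 (adjusted p = 0.0859), and the authors' table. *Mmp13*, a collagenase, fell by 1.12 (SE 0.35, adjusted p = 0.0373) from control values of -3.94 to -2.63, and 10 of 18 mutant kidneys lay below every control. That call was lost without control kidney 1, 2, 3, 4 or 6, mild kidney 2, moderate kidney 3 or severe kidney 1, and over its other settings the adjusted p reached 0.0913. Of the 16 ADAM and ADAMTS proteases none was called over all mgb-/- kidneys by limma. *Adamts1* (0.83, adjusted p = 0.00437), *Adamts2* (0.96, adjusted p = 0.032) and *Adam17* (0.45, adjusted p = 0.0218) rose by less than 2-fold, as did *Mmp23* (0.57, adjusted p = 0.0284) among the other metalloproteinases. In severe against control kidneys 2 of the 16 were called, beside 4.71% of all genes. *Adamts2* rose there by 1.21 (SE 0.34, adjusted p = 0.0234), called in 30 of 36 other settings and lost without control kidney 3 or severe kidney 5. *Adamts4*, an aggrecanase, rose by 2.48 (SE 0.83, adjusted p = 0.0459) and was called in 12 of 35 other settings, being lost without any of 15 kidneys, severe kidney 5 among them (adjusted p up to 0.118 over all settings). The mild and moderate kidneys among the 15 enter only the shared spread. At an adjusted p alone, 5 of the 16 were higher and 1 was lower in severe against control kidneys, beside 16.1% of all genes. The lower was *Adam9* (-0.47, limma adjusted p = 0.0166). *Adamts1*, *Adamts2*, *Adamts4*, *Adam17*, *Adam9* and *Mmp23* were named after their values were seen.

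The plasminogen system, whose protease plasmin activates several metalloproteinases, had 2 genes called among the 7 tested, beside 3.09% of all genes. *Plaur*, the urokinase receptor, rose by 1.18 (SE 0.36, limma adjusted p = 0.0331), and the call was lost without any of control kidneys 1 to 5, with adjusted p up to 0.0808 over all settings. *Serpinf2*, the antiplasmin of plasma, fell by 1.08 (SE 0.33, adjusted p = 0.035), and that call was lost without any 1 of the 6 controls or severe kidney 5 (adjusted p up to 0.0832 over all settings). *Serpinb6a* (0.67, adjusted p = 0.0355), named after its value was seen, rose by less than 2-fold.

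Of 9 tested modulators of these proteases 3 were called over all mgb-/- kidneys, beside the same 3.09%. *Pzp*, a broad protease inhibitor of the alpha-2-macroglobulin family, fell from control values of 4.20 to 4.59 to between -2.51 and 4.51 in mutant kidneys, 15 of which lay below every control. The change was -2.89 (SE 0.73, limma adjusted p = 0.0134), called in all 35 other settings. *Spock2*, a matrix proteoglycan, rose by 1.43 (SE 0.31, adjusted p = 0.00547), with 18 of 18 mutant kidneys above every control. It was called in 33 of 35 other settings, the exceptions being normexp (0.43, adjusted p = 0.0492) and the authors' normalized values, where the rise was under 2-fold. *Thbs1*, thrombospondin 1, rose by 1.16 (SE 0.31, adjusted p = 0.0183), a call lost without control kidney 3 (adjusted p up to 0.056 over all settings). In severe against control kidneys 3 of the 9 were called higher and 1 lower, beside 4.71% of all genes. *Thbs2*, called there and not over all mgb-/- kidneys, rose by 1.20 (SE 0.41, limma adjusted p = 0.0471). It was called in 7 of 36 other settings and was named after its value was seen. *Lrp1* (0.75, adjusted p = 0.0177), a receptor that clears proteases from the cell surface and was named after its value was seen, rose by less than 2-fold. Among 16 collagens, laminins and other substrates none was called by limma, 15 had a mean above control, and the median difference was 0.44, beside 0.01 over all genes. The share of all genes with a mean above control was not counted. *Eln*, elastin (0.74, adjusted p = 0.0221), and *Dcn*, decorin (0.66, adjusted p = 0.043), named after their values were seen, rose by less than 2-fold. In severe against mild kidneys none of the genes of these lists was called.

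**Figure D5:**
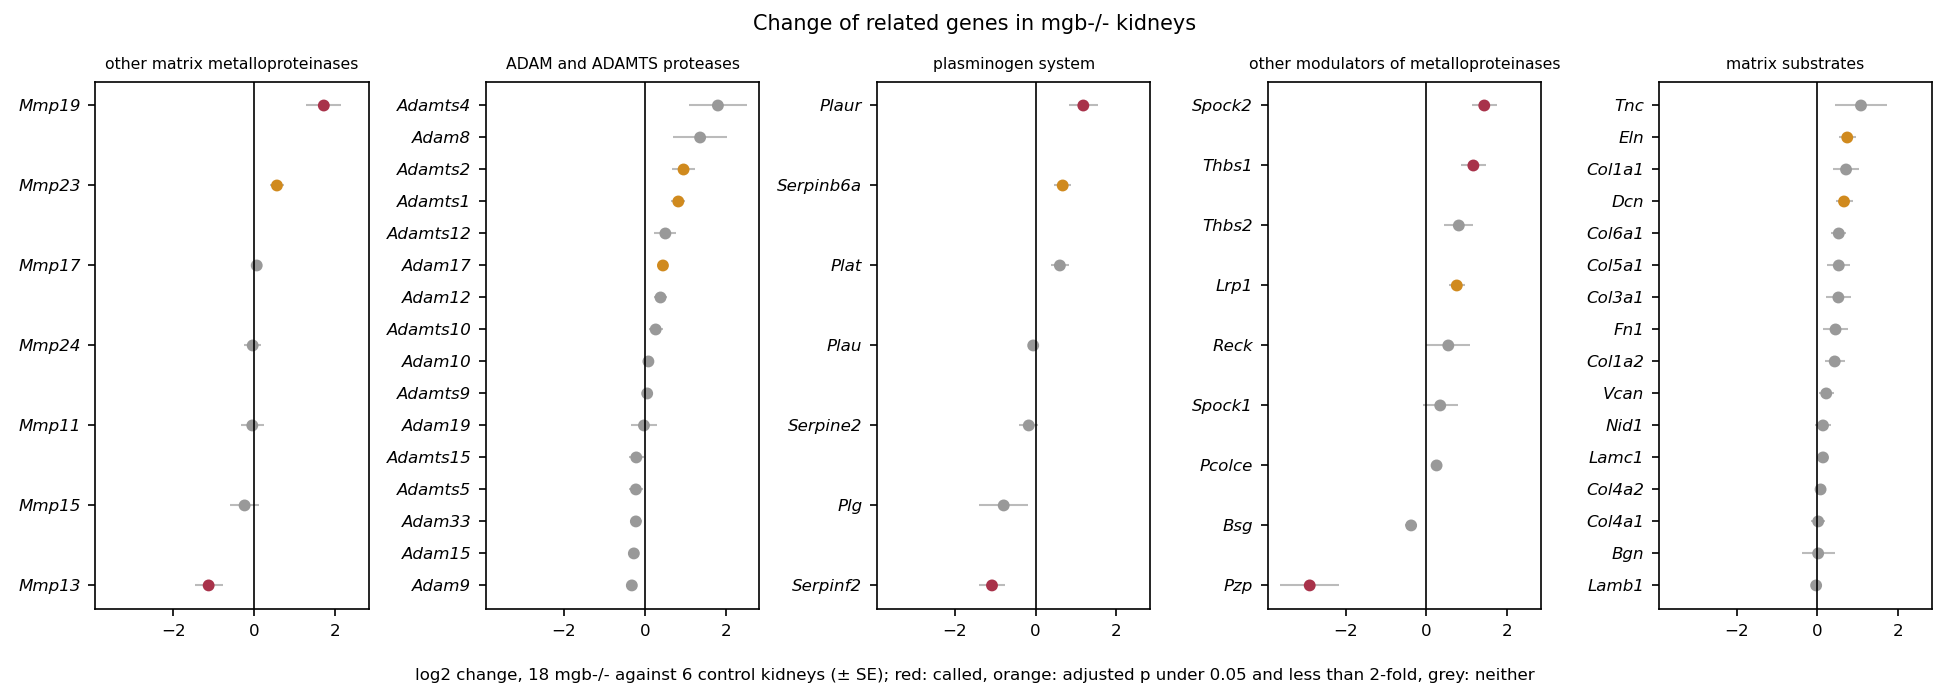
The horizontal axis of each panel is the log2 difference between 18 mgb-/- and 6 control kidneys, with its SE, for the tested genes of 5 lists of related genes, ordered by value. Red points were called, orange points had an adjusted p under 0.05 and less than 2-fold, and grey points neither; *Mmp19* is the highest called point, at a fitted 1.73, and *Pzp* the lowest, at -2.89.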

How the data were processed

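Total RNA of 24 snap frozen kidneys was labelled with Cy3 and hybridized by the study to 1-colour Agilent 8x60K mouse arrays, on 3 slides of 8. The authors deposited the output of Agilent Feature Extraction 10.10, in which the processed signal is an intensity with background subtracted and not normalized between arrays. A table of intensities normalized between arrays by a method not given in the sources used here was also deposited by the authors and served as an alternative. Each array was scaled here by its 75th percentile after leaving out control spots and spots marked as outliers, and values were taken to log2. Spots of a probe were averaged, 38838 of 55681 probes, those well above background in 5 or more kidneys, were kept, and the brightest probe was used for a gene. Names came from the RefSeq table (GRCm38.p6) for 26762 probes. A *Timp2* probe other than the brightest is given beside it.

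The limma package (3.58.1, under R 4.3.3) fitted mgb-/- against control as 2 groups and the grades as 4. A fold against a group with no array well above background was computed with that group raised to the floor. It holds for this scale and is no strict minimum. Correlations used 100000 permutations, two-sided, in Python 3.11.15, and the smallest p they can give is 1e-05. Groups came from the labels. The named genes were the 10 members, genes of the related lists called over all mgb-/- kidneys or in severe against mild kidneys, *Lcn2*, *Havcr1*, and the 3 genes most like each called member. Further genes of these lists were named after their values were seen. One gene of the plasminogen list is not reported here. The members and lists were chosen with earlier results of these data known. The limma fit of mgb-/- against control was tested on simulated data with planted differences. The alternatives tried were array medians as the scale, quantile normalization, normexp (offset 50, on the median signal and background, the mean signal being absent from the files), the authors' table, no filter on dim probes and one over all 24 arrays, averaged probes of a gene, slide and replicate number as blocks, array weights, no fold minimum, the compared groups alone and each kidney left out. Leaving out 3 kidneys with extreme shares of probes above background, or 4 with high *Lcn2*, was chosen after seeing the data.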

Additional observations from a re-analysis of the deposited data

Results flagged for a closer look

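There were 40 groups of 5 to 7 kidneys, 1 for each gene and grade or control group. Of these, 6 held a kidney far from the others by Dixon's ratio of the gap to the range. For independent groups chance gives about 1 in 20, but the groups of different genes hold the same kidneys. The share of all genes flagged in this way was not counted. In the severe group the flagged kidney was number 5 for *Timp1* (ratio 0.73, value 5.17), *Mmp2* (0.75, value 1.14), *Mmp9* (0.71, value -0.86), *Mmp10* (0.65, value -3.10) and *Mmp14* (0.77, value 0.50). In the moderate group it was number 1 for *Mmp10* (0.93, value -2.35). Without severe kidney 5, the calls in severe against control kidneys were lost for *Timp1* (log2 difference 1.96, limma adjusted p = 0.0994), *Mmp3* (2.32, 0.0562), *Mmp7* (3.02, 0.0704) and *Mmp14* (0.92, 0.0538). *Mmp10*, which was too dim to be tested, stood above background in 2 of 18 mgb-/- and 0 of 6 control kidneys.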

How the results depend on the processing

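In the comparisons where a gene was called, its fitted difference changed sign in no alternative. The counts of called genes moved more. Of the 3 called over all mgb-/- kidneys, 0 were called with normexp, 0 in the authors' table, 1 with the filter on all arrays, which drops *Mmp3* and *Mmp7*, and 1 without the 3 kidneys with extreme shares of probes above background (moderate 3, severe 1 and 4). In mild kidneys 2 were called with array weights and 3 with the compared groups alone, instead of 0. In moderate kidneys 4 were called with array weights, and 0 with normexp, in the authors' table, with the filter on all arrays, with the compared groups alone and without the 3 kidneys, instead of 1. In severe kidneys 2 were called when scaled by the median, 0 with normexp, 1 in the authors' table, 2 with the filter on all arrays, 2 with the compared groups alone and 1 without the 3 kidneys, instead of 4. Between moderate and mild kidneys array weights gave 1 called gene, *Timp1*. With 1 kidney left out the counts ran from 1 to 4 over all mgb-/-, from 0 to 4 in moderate and from 0 to 4 in severe kidneys. Quantile normalization ended the calls of *Mmp14* over all mgb-/- kidneys and of *Timp1* in severe kidneys, and so did the omission of the filter on dim probes. For each of these the cause was not tested. Over the 14 kidneys with lower *Lcn2*, which are fewer and span a narrower range, 2 pairs of the 10 genes and 0 pairs with *Lcn2* or *Havcr1* passed, against 13 and 12 over 18. The share of all gene pairs that would pass was not counted.

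Scaling by the median moved the median of all genes from 0.01 to -0.15 over all mgb-/- kidneys, and the called genes from 511 higher and 353 lower to 344 higher and 527 lower. The difference of *Timp2* was then 0.41. This scaling shifts the differences of all genes alike, so its distance of 0.56 from that median is kept by arithmetic and is no separate evidence. Over all genes the number called ranged from 420 (normexp) to 1177 (array weights) around 864 over all mgb-/- kidneys, from 278 (replicate block) to 1165 (array weights) around 618 in mild, from 14 (without moderate kidney 1) to 1477 (array weights) around 204 in moderate and from 711 (normexp) to 2283 (without severe kidney 6) around 1318 in severe kidneys. In deviations from the group means, kidneys of different groups with the same replicate number had a median r of 0, as had other pairs. Their r ran from -0.55 to 0.65, with 10 of 33 pairs above 0.1, and 6 of 24 kidneys correlated best with their own number. Such values cannot tell whether the numbers pair any kidneys. With the replicate number as a block (replicate block) the counts were 0 in moderate and 0 in severe kidneys, and *Mmp14* was no longer called over all mgb-/- kidneys. Slide as a block changed no call among the 10 genes. The fits rest on 5 to 7 kidneys a grade, and no control kidney had a measurable signal of *Mmp3*, *Mmp7* or *Mmp10* above background.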
